A study of Homo sapiens with 7 samples.

Results

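The genes described here are GAS5 and SNHG6, which belong to a list of 6 long noncoding RNA genes that host small nucleolar RNAs (snoRNAs): GAS5, SNHG1, SNHG5, SNHG6, SNHG8 and ZFAS1. The rule picks rows by gene name, and the list was drawn up with earlier results of these data known. Isoform rows were matched through the Ensembl stem of their gene ID, which gave 284 isoforms for GAS5 and 5 for SNHG6, 289 of the 386982 isoforms in the table. The 4 other listed genes were not analysed here. The libraries hold polyadenylated RNA of the human embryonic stem cell line HUES66, which is an established line, read as full-length cDNA on a PacBio instrument. The series used Cas13d, a nuclease that cuts RNA as directed by a guide, to lower isoforms of RBFOX2, which encodes a splicing regulator. There was 1 control library, labelled WT, and 1 library for each of 6 RBFOX2 isoform knockdowns, called G14 (id 178146), G13 (id 178145), G12 (id 178135), G11 (id 178136), G5 (id 178149) and G3 (id 178147). All 7 cultures, the control included, had received 1 µg/ml doxycycline and were at 24 h, and all 7 carry the description piggyBac. The labels do not state which RBFOX2 isoform an id stands for, nor what guide, if any, the control cells held.

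A snoRNA host gene is transcribed into a long precursor whose introns contain snoRNAs, the small RNAs that guide the modification of ribosomal RNA. Splicing frees the introns, and exonucleases trim each one down to the snoRNA, which its bound core proteins protect. The spliced exons remain as a polyadenylated RNA with little coding capacity. The known host genes of this type often begin transcription at a run of pyrimidines, as genes for ribosomal proteins do, and their spliced RNA is a known substrate of nonsense-mediated decay. GAS5 was named for its accumulation in growth-arrested cells, and its introns hold 10 box C/D snoRNAs, which direct methylation of ribose. SNHG6 hosts a single box C/D snoRNA, SNORD87. In this text a snoRNA is called retained when its whole sequence lies inside an exon of the isoform that a read was assigned to, so that the polyadenylated RNA still carries it.

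GAS5 (ENSG00000234741.10) lies on the minus strand of chromosome 1, and its most used 5′ end in these libraries was at chr1:173867991 (GRCh38). The sequences below are the parts of the gene on which the results turn. They come from GENCODE 29 transcripts on GRCh38 and are written 5′ to 3′ in the sense of the RNA. The first exon, chr1:173867960-173867991 on the minus strand, starts at that most used 5′ end. Its capitals mark the letters CTTTTC, which begin at base 3 and lie in a run of pyrimidines that also takes in the t before them.
GAS5 first exon: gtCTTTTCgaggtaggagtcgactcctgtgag
The same 6 letters occurred on the sense strand in 1.03% of the first 32 bases of all GENCODE 29 transcripts, and on either strand in 2.23%. The next sequence is the internal exon chr1:173865471-173865547 on the minus strand, which is 77 nt long. It has a pair of 5′ splice sites, and the capitals mark the 39 nt that are left out when the upstream one is used, leaving 38 nt.
GAS5 exon with 2 donors: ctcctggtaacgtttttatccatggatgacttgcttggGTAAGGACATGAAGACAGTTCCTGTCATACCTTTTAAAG
The last set holds 3 of the 10 snoRNAs, with coordinates from RefSeq on GRCh38.p14. SNORD74 (chr1:173867674-173867745) is shown because reads began at its edges, SNORD79 (chr1:173865350-173865430) because its exon retention was common and reads also began at its edge, and SNORD80 (chr1:173864833-173864903) because it was the snoRNA most often retained. Capitals mark the letters of box C, TGATGA, and of box D, CTGA, the elements that core proteins bind in this class of snoRNA.
SNORD74: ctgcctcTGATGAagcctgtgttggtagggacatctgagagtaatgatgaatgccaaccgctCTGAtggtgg
SNORD79: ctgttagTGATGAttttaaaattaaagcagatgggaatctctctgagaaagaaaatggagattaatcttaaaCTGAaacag
SNORD80: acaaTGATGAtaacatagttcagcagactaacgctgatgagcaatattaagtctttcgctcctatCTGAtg
Among 288 SNORD transcripts of GENCODE 29, TGATGA occurred on the sense strand in 77.4% and on the other strand in 1.04%, and CTGA in 98.3% and 27.8%.

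Library totals lay between 16801842 reads (control) and 26678538 reads (G12). Values are given as TPM, which here is a read count scaled by the total of its library with no correction for transcript length, so levels are compared between libraries and never between genes. The table lists isoforms with at least 1 control read, and the listed isoforms held 98.1% to 98.6% of the reads of the G libraries. RBFOX2 itself stood at 107 TPM in the control, and at 106 in G14, 55.9 in G13, 88.5 in G12, 82.9 in G11, 96.8 in G5 and 42.1 in G3. Since the knockdowns were directed at isoforms, a gene total is an incomplete check of them. POU5F1, a defining gene of pluripotent cells, ranged from 377 to 588 TPM over the G libraries, against 915 TPM in the control. Of the 6 pluripotency markers with rows, POU5F1 and NANOG were below the control in all 6 G libraries, L1TD1, DPPA4 and TDGF1 were above it in all 6, and LIN28A was on both sides. The fibroblast marker COL1A1 stood at 16.4 TPM in the control and at 1.58 (G13) to 30.3 (G3) in the others, and the endoderm and mesoderm markers with rows reached at most 0.144 TPM.

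GAS5 RNA was most abundant in the control and lowest in G5. Its level was 138 TPM in the control (2312 reads), 91.4 in G14 (1915 reads), 133 in G13 (3021 reads), 112 in G12 (2976 reads), 104 in G11 (2158 reads), 86.4 in G5 (2198 reads) and 87.0 in G3 (1553 reads). The control lay above all 6 G libraries, with G13 nearest to it. G3, G5 and G14 formed the low end, and their neighbours in that order differed by less than counting error. Relative to the control, GAS5 stood at 66.4% in G14 (95% exact interval 62.5 to 70.6), 81.1% in G12 (76.8 to 85.6), 75.3% in G11 (71.0 to 79.9), 62.8% in G5 (59.2 to 66.6) and 63.2% in G3 (59.3 to 67.5). In G13 it stood at 96.3%, and the interval, 91.2 to 102, included the control's level. With median-of-ratios scaling the log2 ratio in G13 went from -0.05 to 0.11. It was also above 0 among isoforms with a mean of at least 1 TPM (0.03) and among isoforms read in all 7 libraries (0.06). With a trend on length and GC content removed it was 0.09. Only isoforms with a control read have rows, so GAS5 reads of the G libraries on other isoforms are missing from their totals. These intervals and all others below cover counting error only, because each group is 1 library and the reads carry no molecular identifiers. Less GAS5 RNA per cell and fewer cells that express it cannot be told apart in bulk RNA.

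SNHG6 was read far less often, and the control was again the highest library. SNHG6 (ENSG00000245910.9, chromosome 8, minus strand) had 95 reads in the control, 46 in G14, 78 in G13, 109 in G12, 85 in G11, 83 in G5 and 72 in G3. Its level was 5.65 TPM in the control, 2.20 in G14, 3.42 in G13, 4.09 in G12, 4.08 in G11, 3.26 in G5 and 4.03 in G3. The control lay above the 6 G libraries and G14 below the rest, while the 5 libraries between them overlapped within counting error when taken as neighbours in order. G14 stood at 38.8% of the control (26.7 to 55.8), and the other 5 G libraries at 57.7% to 72.3%, each with an interval that stayed below 100%. With reference IDs only, which leaves 1 isoform, the log2 ratio turned from -0.43 to 0.23 in G11 and from -0.42 to 0.02 in G12. With a mean of 3.82 TPM, SNHG6 fell under the 5 TPM used to choose the genes for the background figures that follow.

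**Figure D1:**
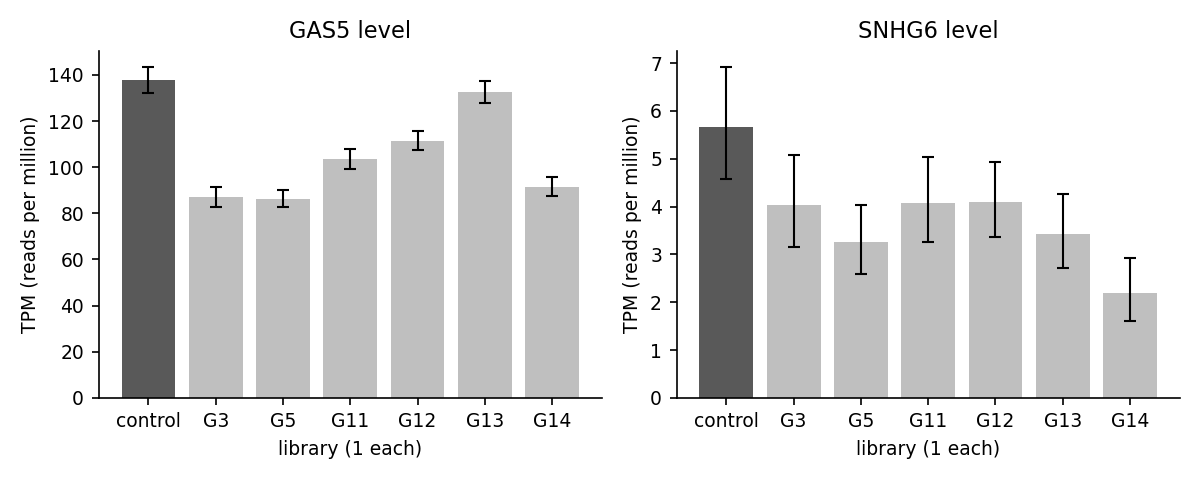
Level of GAS5 (left) and SNHG6 (right) in the control (dark bar) and the 6 G libraries (grey bars), in TPM, with 1 library each and exact 95% Poisson intervals of the counts as error bars. GAS5 ran from 86.4 TPM in G5 to 138 in the control, and SNHG6 from 2.20 TPM in G14 to 5.65 in the control.

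Of the 12 pairs of a gene and a G library, 6 were at least 1.5-fold below the control on the log2(TPM + 0.5) scale and 0 at least 1.5-fold above. They were GAS5 in G3, G5 and G14, and SNHG6 in G5, G13 and G14. Among the 7877 genes with a mean of at least 5 TPM, the share at least 1.5-fold lower was 31.0% in G14, 29.1% in G13, 22.6% in G12, 22.5% in G11, 17.2% in G5 and 12.3% in G3, and the shares at least 1.5-fold higher were 15.5%, 6.86%, 5.08%, 6.53%, 3.71% and 8.71% in the same order. Of these genes, 20.5% had a control level above all 6 G libraries, as GAS5 and SNHG6 did, so that position of the control was common in the table. All 6 comparisons share the single control library, so an unusual control would shift all of them together. Rows exist only for isoforms with a control read, which favours the control in these levels.

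Transcript length moved with these values, mainly through the shortest genes. Genes in the shortest quintile by annotated length (207 to 1615 nt) had median log2 ratios of -1.01 in G14, -0.42 in G13, -0.38 in G12, -0.72 in G11, -0.84 in G5 and -0.53 in G3, whereas the medians of the longest quintile ran from -0.20 to 0.22. Those of the second quintile (1616 to 2238 nt) already ran from -0.13 in G13 to 0.14 in G3. The log2 ratios of GAS5 were -0.59 in G14, -0.05 in G13, -0.30 in G12, -0.41 in G11, -0.67 in G5 and -0.66 in G3. With a trend on length and GC content removed, the median of GAS5 over the 6 G libraries went from -0.50 to 0.08, and that of SNHG6 from -0.55 to 0.36. The lengths behind that trend came from 4 GAS5 isoforms that held 5.23% of its reads and averaged 993 nt. When the trend was read instead at 1846 nt, the mean over all GAS5 isoforms of known structure, the median was -0.39. That of SNHG6, read at 2358 nt, the mean over its isoforms of known structure, was -0.67. The SNHG6 length used at first, 638 nt, came from 1 isoform with 36.8% of its reads, and the 2358 nt leave that isoform out. Neither is therefore the mean length over all SNHG6 reads. The part of length in the levels was not tested beyond these values.

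The reads of GAS5 spread over many isoforms, and the one with the highest mean share over the 7 libraries was nearly unspliced. The intron chain was known for 253 of the 284 isoforms, which held 71.2% to 74.2% of GAS5 reads in each library. Isoforms without a reference ID are numbered here by their mean share of the gene's reads. GAS5 isoform 1 (3605 nt) began at chr1:173867681, inside SNORD74, and ran to the 3′ end with only the last intron removed, so that it retained 8 snoRNAs. Its share of GAS5 reads was 6.62% in the control, 9.40% in G14, 9.10% in G13, 10.5% in G12, 8.02% in G11, 7.37% in G5 and 7.53% in G3. The control was the lowest of the 7 libraries and G12 the highest. Isoform 1 was the most read isoform in G12 and G13 only; in the control, ENST00000687189.1 (176 reads) and ENST00000689238.1 (158) were read more often than isoform 1 (153). By Fisher's exact test (two-sided, Benjamini-Hochberg adjusted over 12 tests), the share rose in G12 (3.90 points, adjusted p = 6.8e-06), G13 (2.49 points, adjusted p = 0.0028) and G14 (2.78 points, adjusted p = 0.0028). The differences in G3, G5 and G11 were 0.92, 0.75 and 1.40 points, with adjusted p of 0.41, 0.42 and 0.13. This test compares the reads of 2 libraries, and it carries no information on how cultures vary. Isoform 1 was chosen for its mean share over these same libraries, 8.37% beside 8.29% for ENST00000685107.1. Its shares in G12 and G13 entered that choice, so the choice favours the rise there. Across the table, 32.8% of 17597 isoforms with a mean share of at least 5% had their lowest share in the control. Rows exist only for isoforms with a control read, and 6.06% of the GAS5 reads of the control lay on 140 isoforms with a single one. Among isoforms with a mean of at least 1 TPM, the share of isoform 1 was 9.45% in the control and 10.1% to 13.8% in the G libraries.

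GAS5 isoform 2 (1699 nt) began at the main 5′ end, had its first 6 introns and its last intron removed, and retained SNORD79, SNORD80 and SNORD47 in a single long exon. It held 5.23% of GAS5 reads in the control and 5.33% to 10.1% in the G libraries. Its level ranged from 6.78 to 9.26 TPM over the G libraries, against 7.20 TPM in the control, with G14 the highest at 129% of the control (102 to 163). Its level therefore overlapped between the control and the G libraries while the gene total was lower. The other 4 isoforms above 5% carry reference IDs whose exons were not used here. ENST00000685107.1 stood at 101% to 137% of its control level and ENST00000691712.1 at 75.9% to 108%. ENST00000687189.1 stood at 39.6% to 71.2% and ENST00000689238.1 at 33.8% to 67.2%, each with its 6 intervals below 100%. ENST00000689238.1 had a mean share of 5.003%, which passed the 5% used to name isoforms only through its 6.83% in the control, so its lower levels are a description that the choice of isoforms favours.

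**Figure D2:**
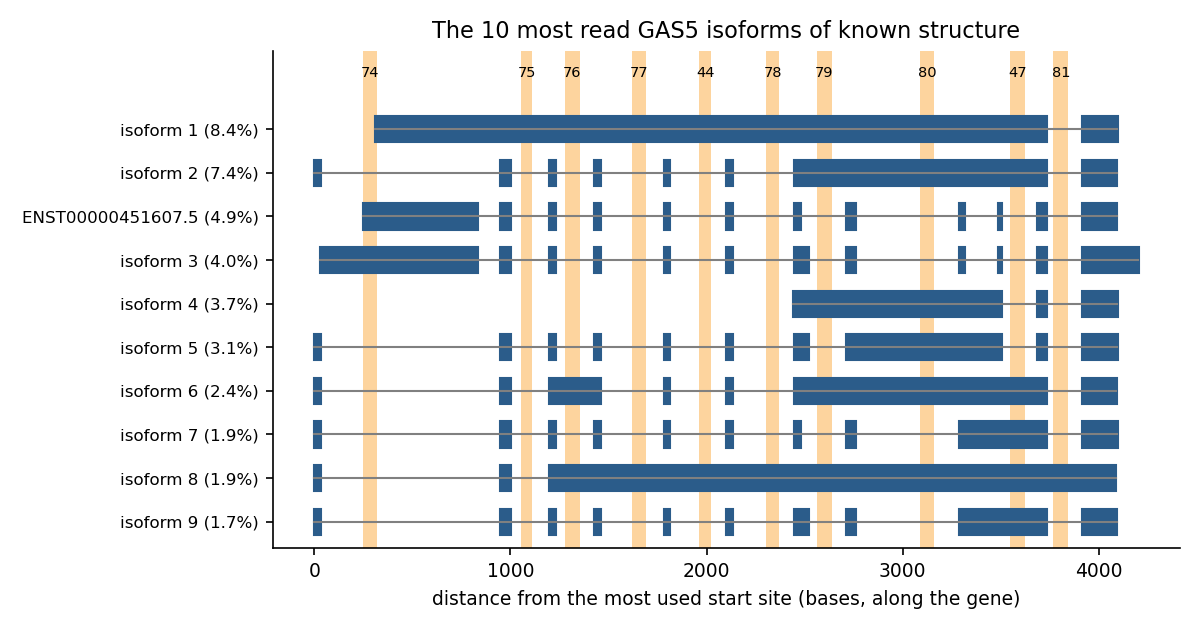
Exons (blue boxes) and introns (grey lines) of the 10 most read GAS5 isoforms of known structure, drawn by distance in bases from the most used 5′ end, with the mean share of GAS5 reads in parentheses. Orange bands are the 10 snoRNAs, labelled by SNORD number; isoform 1 retains 8 of them, and isoform 2 retains 3 near the 3′ end.

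Most GAS5 reads of known structure retained at least 1 snoRNA. The share was 87.1% in the control, 90.7% in G14, 86.8% in G13, 86.9% in G12, 87.4% in G11, 88.3% in G5 and 90.3% in G3. The control lay inside the range of the G libraries. Counted over all GAS5 reads, with every read of unknown structure taken as retaining none, at least 62.7% to 67.3% retained a snoRNA. Reads that retained no snoRNA were thus a minority of the polyadenylated GAS5 RNA whose structure was known.

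Retention differed widely between the snoRNAs, by position in the gene. Reads of known structure held 72.0% of the GAS5 reads of the control, and retention in the other reads is not known. SNORD80 was retained most often, at 60.3% of the control reads of known structure that span it, followed by SNORD79 at 49.4% and SNORD47 at 48.5%. SNORD76 followed at 35.4%, SNORD44 at 24.2%, SNORD77 at 22.5%, SNORD78 at 19.3%, SNORD74 at 18.1% and SNORD75 at 12.4%. SNORD81, in the last intron, was retained least, at 6.31%. Among control reads that began at the main 5′ end the order at the low end was another, with SNORD75 at 1.42%, SNORD74 at 7.44% and SNORD81 at 9.19%. The 3 snoRNAs with the highest retention sit next to each other in the 3′ part of the gene.

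The share of reads of known structure that retained a snoRNA was lower in the control than in the G libraries for most of the 10. For SNORD80 it was 60.3% in the control (Wilson 95% interval 57.9 to 62.6), 77.7% in G14 (75.5 to 79.8), 66.03% in G13 (64.04 to 67.96), 67.5% in G12, 72.2% in G11, 71.9% in G5 and 72.6% in G3. The control did not overlap the G libraries, and G14 was the highest. For SNORD47 it was 48.5% in the control, 65.3% in G14, 52.2% in G13, 55.3% in G12, 60.4% in G11, 61.01% in G5 and 57.8% in G3. For SNORD79 it was 49.4% in the control, 65.3% in G14, 53.4% in G13, 56.3% in G12, 60.5% in G11, 60.4% in G5 and 56.0% in G3. In these 3 snoRNAs G14 was highest and G13 was the G library nearest to the control.

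The control was the lowest of the 7 libraries for 8 of the 10 snoRNAs, the others being SNORD76 (39.3% to 48.0% in the G libraries), SNORD44 (28.97% to 33.4%), SNORD77 (24.1% to 30.4%), SNORD78 (21.1% to 26.7%) and SNORD81 (6.93% to 11.5%). The 2 exceptions were SNORD74, at 12.9% to 20.1% in the G libraries, and SNORD75, at 12.3% to 18.2%, for which the control lay inside the range. The 10 shares come from the same reads and are not independent, and a share lowest in the control was found for 32.8% of isoforms across the table. Among reads that began at the main 5′ end, the control was lowest for 7 of the 10, SNORD77 joining the exceptions, and SNORD80 went from 66.1% in the control to 74.6% to 84.2% in the G libraries.

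**Figure D3:**
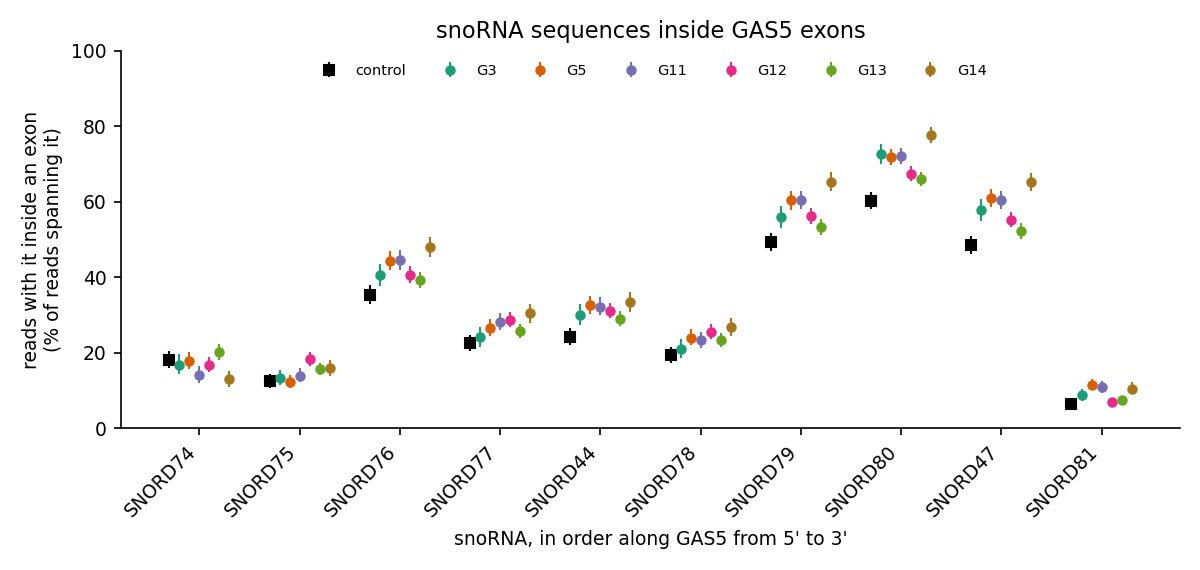
Percent of GAS5 reads of known structure spanning each snoRNA that retained it inside an exon, by library (black squares, control; coloured circles, G libraries), with Wilson 95% intervals. SNORD80, SNORD79 and SNORD47 were retained most, SNORD81 was lowest over all reads though not among reads from the main 5′ end, and the control is the lowest point for 8 of the 10.

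The levels behind these shares, again for reads of known structure only, show which of them were fewer. Reads spliced around SNORD80 stood at 39.3 TPM in the control, 15.1 in G14, 33.4 in G13, 26.2 in G12, 21.2 in G11, 17.5 in G5 and 16.9 in G3. Reads that retained SNORD80 stood at 59.7 TPM in the control, 52.7 in G14, 64.9 in G13, 54.3 in G12, 55.1 in G11, 44.8 in G5 and 44.9 in G3. The spliced reads were lower in every G library than in the control, while the retaining reads of G13 lay above the control and those of the other 5 below it.

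Isoforms of known structure were also grouped by how many snoRNAs they retained. The 58 isoforms with 1 snoRNA stood at 34.0 TPM in the control, 13.3 in G14, 30.6 in G13, 23.3 in G12, 17.9 in G11, 14.7 in G5 and 19.9 in G3, which is 39.0% to 89.9% of the control. The 44 isoforms with none stood at 46.9% to 101% of the control and the 108 isoforms with 2 to 4 at 60.9% to 92.9%. The group with none is not free of snoRNA sequence. ENST00000451607.5, with 115 of its 215 control reads, holds all of SNORD74 but the first base in an exon. Other isoforms of this group, such as GAS5 isoform 14, begin at the same position. The 43 isoforms with 5 to 9 stood at 21.0 TPM in the control, 21.7 in G14, 25.7 in G13, 22.8 in G12, 23.4 in G11, 19.6 in G5 and 17.0 in G3. For this last group G3 was below the control (81.0%, 69.3 to 94.8), G13 above it (122%, 107 to 140), and the intervals of the other 4 included 100%. The mean number of snoRNAs per read of known structure was 2.72 in the control, 3.65 in G14, 3.06 in G13, 3.22 in G12, 3.40 in G11, 3.47 in G5 and 3.26 in G3.

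Retention adds length, and length moved the same way. The mean length of a GAS5 read of known structure was 1678 nt in the control, 1966 in G14, 1813 in G13, 1864 in G12, 1889 in G11, 1928 in G5 and 1874 in G3. GAS5 isoforms under 1200 nt had log2 ratios of -1.53 in G14, -0.27 in G13, -0.62 in G12, -0.91 in G11, -1.42 in G5 and -1.31 in G3. The medians of the 1458 isoforms of all genes in that length range were -0.77, -0.30, -0.26, -0.58, -0.67 and -0.47 in the same order. GAS5 isoforms of 2000 nt or more had log2 ratios of 0.06 in G14, 0.28 in G13, 0.10 in G12, 0.15 in G11, -0.12 in G5 and -0.32 in G3, beside medians of 0.24, -0.02, 0.02, 0.20, 0.34 and 0.28 for the 3117 isoforms of all genes in that range. GAS5 isoforms from 1200 nt to under 2000 nt had log2 ratios of -0.39 in G14, 0.01 in G13 and -0.31 in G12. They were -0.35 in G11, -0.56 in G5 and -0.50 in G3. The medians of the 1991 isoforms of all genes in that range were -0.07, -0.03, -0.01, 0.04, 0.08 and 0.10 in the same order. In this middle range GAS5 lay below those medians in every G library but G13. Short isoforms were the lower ones both in GAS5 and in the table as a whole, and retention and length cannot be told apart within GAS5.

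**Figure D4:**
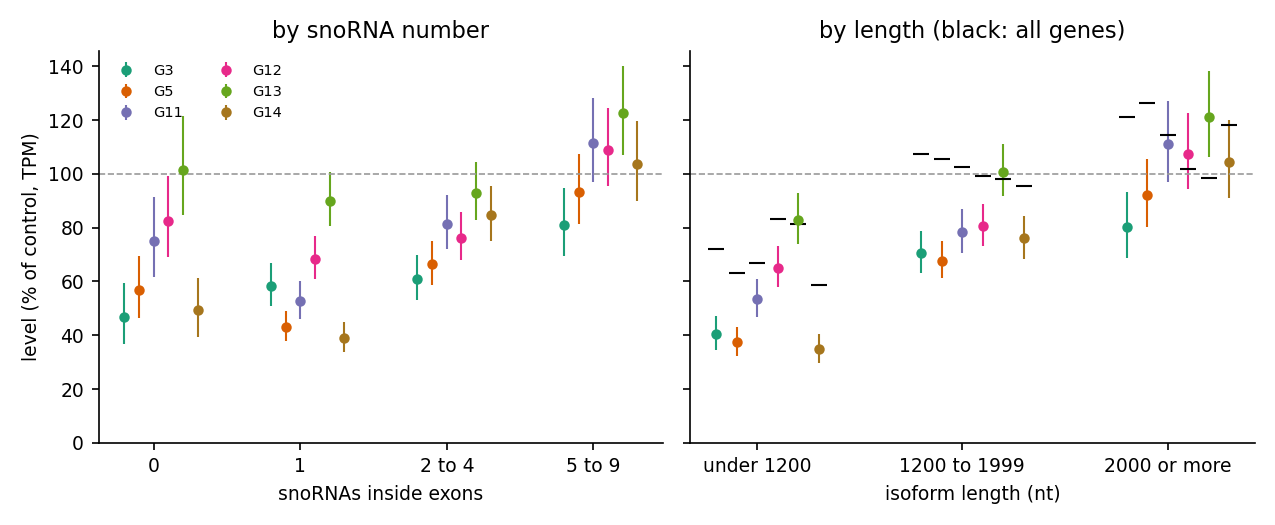
Level of GAS5 isoform groups as percent of the control level in the 6 G libraries, by number of retained snoRNAs (left) and by isoform length (right), with exact 95% intervals; black dashes are the medians of isoforms of all genes in the same length range. Isoforms under 1200 nt stood at 34.7% to 82.8% of the control, and those of 2000 nt or more at 80.1% to 121%.

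For the GAS5 exon with 2 donors, the control was not at either end of the range. Among reads of known structure that use either site, the short form made up 43.0% in the control, 42.1% in G14, 44.7% in G13, 38.8% in G12, 43.0% in G11, 48.0% in G5 and 43.7% in G3. Its interval in the control, 39.6 to 46.4, overlapped that of each G library. These reads numbered 474 to 1010 in a library.

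The 5′ ends of GAS5 reads fell at the main start and at a small number of internal positions. Within 15 bases of chr1:173867991 lay 67.5% of the reads in the control, 72.3% in G14, 65.2% in G13, 66.2% in G12, 69.8% in G11, 74.4% in G5 and 76.2% in G3, on 177 isoforms. The control lay inside the range of the G libraries. The other 107 isoforms began further inside the gene, and 55 of them (51.4%) began within 5 bases of the 5′ edge of a snoRNA, where such windows cover 2.70% of the positions. These isoforms lay at 5 of the 10 snoRNAs, SNORD74, SNORD76, SNORD44, SNORD79 and SNORD80, and within 2 bases of an edge there were 49 of them. By reads the share was smaller: 35.2% of the internal reads in the control and 34.7% to 39.5% in the G libraries began within 5 bases of an edge. The most read internal end, chr1:173867681, lay 64 bases downstream of one. The ends at chr1:173867962 (671 reads over the 7 libraries) and chr1:173865548 (615 reads) were also common, and neither lay within 5 bases of such an edge. Isoforms share their ends, so these counts are a description and not independent events.

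SNORD74 stood out among these positions. Reads that began at chr1:173867744, base 2 of the SNORD74 sequence printed above, numbered 142 in the control, 107 in G14, 228 in G13, 220 in G12, 160 in G11, 143 in G5 and 76 in G3. They include ENST00000451607.5, a reference transcript spliced at all 11 of its introns, which held 4.93% of GAS5 reads on average. Because it begins 1 base inside SNORD74, it was not counted as retaining it, although the exon holds the rest of the snoRNA. Reads that began at chr1:173867681, base 65 of the 72 bases of SNORD74 and within the letters of box D (bases 63 to 66), all belonged to GAS5 isoform 1. Reads within 5 bases of the 5′ edge of SNORD74 made up 7.44% of GAS5 reads in the control and 6.06% to 8.41% in the G libraries, so the control lay inside their range.

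Among the 5′ edges of snoRNAs, those of SNORD79 and SNORD76 were the next most frequent. Reads that began within 5 bases of the 5′ edge of SNORD79 made up 1.69% of GAS5 reads in the control and 0.591% to 2.25% in the G libraries, and those at SNORD76 made up 1.77% and 0.773% to 1.88%. Base 3 of the SNORD79 sequence, chr1:173865428, was the commonest position of the first group. No isoform began at the edge of SNORD75, SNORD77, SNORD78, SNORD47 or SNORD81, for which a count of 0 in the control allows 3 of 2312 reads. At the 3′ end, 94.7% to 98.0% of GAS5 reads ended within 10 bases of chr1:173863896. The antisense gene GAS5-AS1, annotated at chr1:173863248-173863941 on the other strand, overlaps that end and was not analysed here.

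**Figure D5:**
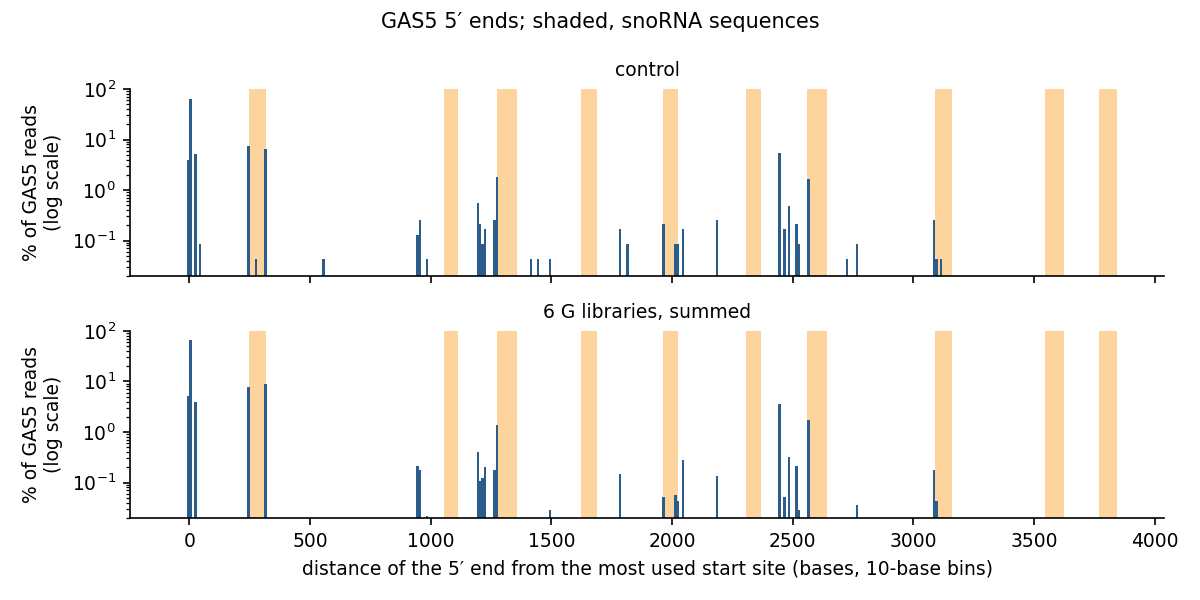
Share of GAS5 reads by position of their 5′ end (bins of 10 bases, log scale), as distance from the most used 5′ end, in the control (top) and the 6 G libraries summed (bottom), with the 10 snoRNAs shaded. Beyond the main start, the tallest bars stand at both edges of SNORD74, and 55 of the 107 internal isoforms began within 5 bases of a snoRNA's 5′ edge.

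In SNHG6, the leading isoform retained its snoRNA and lost share in some of the G libraries. SNHG6 isoform 1 (2327 nt, 1 intron) has SNORD87 inside its last exon. Its reads numbered 62 of 95 in the control (65.3%), 18 of 46 in G14 (39.1%), 45 of 78 in G13 (57.7%), 55 of 109 in G12 (50.5%), 33 of 85 in G11 (38.8%), 51 of 83 in G5 (61.4%) and 44 of 72 in G3 (61.1%). The control was the highest and G11 and G14 the lowest. Across the table, 7.83% of isoforms with a mean share of at least 5% had their highest share in the control. By Fisher's exact test the share fell in G11 (by 26.4 points, adjusted p = 0.0028) and in G14 (by 26.1 points, adjusted p = 0.0094). The G14 call was lost under both isoform filters, at -18.1 points with adjusted p of 0.13 (the leading isoform against isoforms with reference IDs) and 0.14 (isoforms with a mean of at least 1 TPM). In G12 the adjusted p was 0.069 for a difference of -14.8 points, and in G3, G5 and G13 it was 0.42 to 0.64. Its level went from 3.69 TPM in the control to 0.859 in G14, which is 23.3% of the control (12.97 to 39.9), and to 42.9% to 66.8% in the other 5.

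The other main isoform, ENST00000520944.6, had 29 reads in the control, 18 in G14, 27 in G13, 47 in G12, 44 in G11, 26 in G5 and 21 in G3. Its level was at 49.8% of the control in G14 (26.0 to 92.7), and the intervals of the other 5 G libraries included 100%. SNHG6 isoform 2, which removes SNORD87 with an intron, had 1 read in the control, 10 in G14, 4 in G13, 5 in G12, 5 in G11, 4 in G5 and 1 in G3. The ratio of G14 to the control was 8.02-fold with an interval from 1.14-fold to 348-fold. Structure was known for 69.5% of SNHG6 reads in the control and 48.2% (G11) to 70.8% (G3) in the G libraries. The remaining reads lay on ENST00000520944.6, and whether they retained SNORD87 is not known here. Among reads of known structure, the share that retained SNORD87 was 97.0% in the control and 64.3% (G14) to 92.2% in the G libraries, on 28 to 66 reads a library. The control had the highest share, and only the interval of G14 (45.8 to 79.3) lay wholly below that of the control (89.6 to 99.2). In GAS5 the control had the lowest share for 8 of 10 snoRNAs; the difference between the genes was not tested.

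Other genes of the same process are given for comparison, from lists of host genes, snoRNP proteins and decay factors. Of 23 other long noncoding host genes, 6 had rows, and 3 of these (SNHG3, SNHG4 and SNHG7) passed the 5 TPM filter. At least 1.5-fold lower were 1 of the 3 in G3, 2 in G5 and all 3 in G11, G12, G13 and G14, and 0 were higher. Of all genes tested, 12.3% were lower in G3, 17.2% in G5 and 22.5% to 31.0% in the others. SNHG3, host of a pair of H/ACA snoRNAs, stood at 85.8 TPM in the control, 28.8 in G14, 50.6 in G13, 48.9 in G12, 36.4 in G11, 33.4 in G5 and 38.9 in G3. SNHG7 had the lowest median log2 ratio of the 6 (-1.95) and SNHG14, a host of many box C/D snoRNAs in the Prader-Willi region, the highest (-0.04).

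Protein-coding host genes, most of them ribosomal protein genes, were lower in many cases. Of 33 listed, 31 passed the filter, and the number at least 1.5-fold lower was 20 in G14, 12 in G13, 12 in G12, 18 in G11, 19 in G5 and 16 in G3, with 0 or 1 higher. Of all genes tested, 31.0%, 29.1%, 22.6%, 22.5%, 17.2% and 12.3% were lower in that order. The median log2 ratios of these host genes were -0.90, -0.31, -0.39, -0.71, -0.90 and -0.59 in the same order, beside medians of -0.10, -0.21, -0.16, -0.04, 0.14 and 0.12 for all genes tested. RPS2, a protein of the small ribosomal subunit, had the lowest median (-1.83) and DKC1, the pseudouridine synthase of H/ACA particles, the highest (0.45). Ribosomal protein transcripts are short, and the shortest quintile of all genes had medians of -0.38 to -1.01.

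The 8 core proteins of snoRNA particles did not move one way. Among the box C/D proteins, FBL, the methyltransferase, ranged from 116 to 257 TPM over the G libraries, against 403 TPM in the control, and was at least 1.5-fold lower in all 6. NOP58, its partner in the particle, ranged from 172 to 194 TPM over the G libraries, against 118.5 TPM in the control, and was at least 1.5-fold higher in 4. NOP56 had a median log2 ratio of -0.33 and SNU13, which binds the box C/D fold, of -0.01. Among the H/ACA proteins, NHP2 had a median of -1.01, GAR1 of -0.66, NOP10 of -0.54 and DKC1 of 0.45. Between 2 and 4 of the 8 were at least 1.5-fold lower in a G library and 0 to 2 higher, where 12.3% to 31.0% of all genes were lower and 3.71% to 15.5% higher.

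Of 9 assembly factors, all of which passed the filter, 0 to 2 were lower by 1.5-fold and 0 or 1 higher in a G library. Of all genes tested, 12.3% to 31.0% were lower and 3.71% to 15.5% higher. Among the 9 factors, ZNHIT3 had the lowest median log2 ratio (-1.02) and RUVBL1, an ATPase of the assembly machinery, the highest (0.41). Of 10 factors of nonsense-mediated decay, 9 had rows and 6 passed the filter. None of the 6 was lower by 1.5-fold in G3 or G5, where 1 was higher, and 2 or 3 were lower in G11, G12, G13 and G14, where 22.5% to 31.0% of all genes were. Of the 9 with rows, UPF3A, which did not pass the filter, had the lowest median (-1.71) and SMG9 the highest (0.22); of the 6 that passed, UPF3B had the lowest (-1.39). SMG5, a factor of this decay pathway, stood at 48.3 TPM in the control, 9.83 in G14, 3.64 in G13, 15.03 in G12, 24.9 in G11, 63.5 in G5 and 70.7 in G3. SMG5 was named after its values were seen. Its part in the GAS5 levels was not tested.

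Among 5218 other genes with a mean of at least 20 TPM, those nearest to the mean profile of GAS5 and SNHG6 over the 7 libraries were ERVK3-1, COMMD9, C18orf32, UBE2B, ALG5 and ASB1, with root-mean-square differences of 0.06 to 0.08 on the centred log2 scale. ERVK3-1 ranged from 41.5 to 63.3 TPM over the G libraries, against 76.4 TPM in the control. None of these 6 is a listed host gene. ZBTB37, which starts 800 bases from the annotated start of GAS5 on the other strand, had 2 to 5 reads a library, too few for a comparison. MCMDC2, which overlaps SNHG6 on the other strand, had 14 to 36 reads.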

How the data were processed

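Members and gene lists were chosen with earlier results of these data known. Each isoform of the deposited table has, per the file headers, a count of full-length reads and a TPM in every library; the authors' TPM equals the deposited count divided by the library total, with no length term. Per the labels' protocols, cDNA was joined into 8-fold arrays and read on the Revio system, and spike-ins, not used here, were added. The submitters' processing notes name GRCh38 and minimap2 2.17; the software that assigned reads to isoforms is not given in the sources used here. Only isoforms with a control read are listed, and empty cells were read as 0. Of the control reads of GAS5, 6.06% lay on 140 isoforms with a single control read.

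Counts were summed over isoforms by gene ID stem, and log2(TPM + 0.5) was compared with the control; genes with a mean of at least 5 TPM formed the background. Total reads per library, 16801842 to 26678538, set a floor of 3 reads, or 0.112 to 0.179 TPM. Ratios carry exact (Clopper-Pearson) and shares Wilson 95% intervals. With 1 library per group no p-value across genes was computed. Fisher's exact test (two-sided) compared leading isoform shares, Benjamini-Hochberg adjusted over 12 tests, because 2 of the 6 listed genes had rows. Isoform IDs that are hashes of splice sites were resolved to intron chains for 252 of 256 GAS5 and 4 of 4 SNHG6 isoforms, each chain giving the ID's exact hash; the method was tested on simulated data. Reference IDs newer than GENCODE 29 have no structure here. snoRNA positions came from RefSeq (GRCh38.p14), sequences and exons from GENCODE 29.

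Genes named are the 6 listed, isoforms with a mean share of at least 5%, the 6 nearest profiles, the extremes of each list, the snoRNP core proteins, overlapping genes and RBFOX2; other isoforms, SMG5, SNHG3, SNHG4 and POU5F1 were named beyond this rule. Alternatives were the pseudocount, scaling, library totals, isoform filters, a length and GC trend, and each G library left out. Python 3.11.15, scipy 1.17.1 and numba 0.67.0 were used.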

Additional observations from a re-analysis of the deposited data

Results flagged for a closer look

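Among 24 sets of 6 values, 1 for each of the 6 G libraries, 1 value stood apart from the others by the gap between the extreme library and its neighbour relative to the range, where chance alone flags about 1 in 20. It was the share of SNHG6 isoform 2 among SNHG6 reads in G14, which was 21.7% (10 of 46 reads, Wilson 95% interval 12.3 to 35.6). The other 5 G libraries lay between 1.39% and 5.88%, and the control, with 1 of 95 reads, at 1.05%. This isoform passed the mean share of 5% used to choose isoforms only through its value in G14, so the choice favoured the gap and it is given as a description.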

How the results depend on the processing

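No paired analysis was possible because each group is 1 library and all carry the same replicate label. The median log2 ratio over the 6 G libraries was -0.50 for GAS5 and -0.55 for SNHG6. Leaving out 1 G library gave -0.59 to -0.41 for GAS5, -0.65 to -0.44 for SNHG6, and 4 to 6 pairs of gene and library at least 1.5-fold lower in place of 6, with 0 higher. Removing the trend on length and GC gave medians of 0.081 and 0.36, 0 pairs were lower and 1 higher, and 5 ratios past 1.5-fold changed sign, to 0.074 for GAS5 in G5, 0.12 for GAS5 in G14, 0.49 for SNHG6 in G5, 0.035 for SNHG6 in G13 and 0.23 for SNHG6 in G14; the cause was not tested beyond the lengths given in the report. Median-of-ratios scaling shifted the median of all genes by 0.13 in G12, 0.16 in G13 and 0.11 in G14 and gave medians of -0.42 for GAS5 and -0.49 for SNHG6 and 4 lower pairs, with GAS5 in G13 at 0.11. Of 60 single log2 ratios over the settings, 52 kept their sign for each gene. The settings that follow were chosen after seeing the data. With the trend read at the decoded length, GAS5 had a median of -0.39 and 4 pairs were lower. With only isoforms read in all 7 libraries, it was -0.39 and 3 pairs were lower; this construction drops isoforms. The other settings gave 4 to 6 lower pairs, and 4 of 12 leading shares passed Fisher's test in place of 5 under both isoform filters, SNHG6 in G14 being the one lost. The count of 8 snoRNAs lowest in the control was the same for isoforms read in all 7 libraries and for those of at least 1 TPM. SNHG6, with 46 to 109 reads a library, limits what can be seen.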
